A study of Mus musculus with 8 samples.

Results

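Lamina-associated domains (LADs) that were present in both preadipocytes and control adipocytes, but absent from adipocytes after either of 2 knockdowns, are described here as lost stretches. They were chosen by the LAD lists themselves: a lost stretch is DNA inside a LAD of both preadipocytes and adipocytes and outside every LAD of the Tmem120a knockdown and of the Tmem120a/b (double) knockdown, by bp, over at least 8 kb. There were 1172 such stretches, with a summed length of 32.4 Mb. The LAD length that preadipocytes and adipocytes shared was 1072 Mb in 3259 stretches, so the lost stretches held 3.02% of it. Since all 4 lists entered the rule, their absence from the knockdown lists is the definition and not a result. Each condition had a single list, so all values below are a description without a test or a replicate error.

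The cells were 3T3-L1, a mouse fibroblast line that is widely used because it forms adipocytes in culture, and the method was LaminB1-DamID. The 8 libraries comprised 1 LaminB1-Dam and 1 Dam library in each of 4 conditions. The conditions were undifferentiated, untreated preadipocytes (day 0) and adipocytes at day 9. The adipocytes carried a control shRNA construct, Tmem120a shRNA or Tmem120a/b shRNA. For the control, the paper names an empty shRNA vector in its DamID text and non-target shRNAs for its microarrays. The shRNA lines were stably transfected, and all conditions received a lentivirus with Dam or LaminB1-Dam (from day 6 in differentiating cells). By the labels this lasted 36 h in all conditions. The paper's results describe it up to harvest at day 9 in adipocytes and for fewer days in preadipocytes. Preadipocytes carried no shRNA, so in their list the day and the missing vector cannot be told apart. The lists hold positions with no score. Depth, knockdown efficiency and markers of the fat cell were therefore not checked here.

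LADs are long parts of the genome that lie against the nuclear lamina at the NE, and they are mostly gene-poor and transcriptionally quiet. In DamID the methylase Dam, fused to LaminB1, marks GATC sequences near the lamina, while free Dam marks accessible GATC. TMEM120A is a transmembrane protein of the NE that is abundant in fat and acts in genome positioning during adipogenesis, and TMEM120B is its paralog.

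Because most LAD borders in these lists lie at a GATC, the ends of the lost stretches can be shown as sequence. Of the 2344 ends, 99.8% lay in a GATC of the NCBIM37 (mm9) sequence. Only 18 ends had a border at the same bp in both knockdown lists, and 3 of these near named genes are printed, with GATC in capitals and on the plus strand. The border in Slc4a4 (chr5:89618915-89618974) and the one in Slc24a2 (chr4:86719874-86719933) were intronic, and the one upstream of Sall1 (chr8:91579407-91579466) lay between genes. The last 2 were chosen after their values were seen.
Slc4a4 border: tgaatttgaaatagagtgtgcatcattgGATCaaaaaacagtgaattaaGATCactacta
Slc24a2 border: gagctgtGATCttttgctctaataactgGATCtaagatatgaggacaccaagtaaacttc
Sall1 border: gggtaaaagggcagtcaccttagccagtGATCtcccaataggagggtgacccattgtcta

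Promoters of 4 genes that lay wholly inside lost stretches are printed next, the richest in CG pairs of 6 that were read, since developmental regulators were frequent among the genes (below). Each run is the 250 bases before the start site, 5′ to 3′ on the gene's strand, from RefSeq on GRCm38.p6, with each CG pair in capitals. Isl1 (chr13:116309689-116309938) had 33 CG pairs, Fzd10 (chr5:128600856-128601105) had 37, Pou3f2 (chr4:22488367-22488616) had 18 and Pou3f3 (chr1:42695518-42695767) had 15. The promoters read but not printed were those of Prdm8, with 11, and Pax9, with 7. The median over all 32851 RefSeq promoters was 6, and 92.1% of them held at least 1 CG pair.
Isl1 promoter: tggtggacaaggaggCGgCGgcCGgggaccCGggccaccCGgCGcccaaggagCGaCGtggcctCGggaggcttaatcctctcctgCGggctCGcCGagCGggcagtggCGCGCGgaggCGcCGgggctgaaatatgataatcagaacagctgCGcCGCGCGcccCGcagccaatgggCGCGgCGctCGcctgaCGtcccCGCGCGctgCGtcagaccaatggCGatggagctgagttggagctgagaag
Fzd10 promoter: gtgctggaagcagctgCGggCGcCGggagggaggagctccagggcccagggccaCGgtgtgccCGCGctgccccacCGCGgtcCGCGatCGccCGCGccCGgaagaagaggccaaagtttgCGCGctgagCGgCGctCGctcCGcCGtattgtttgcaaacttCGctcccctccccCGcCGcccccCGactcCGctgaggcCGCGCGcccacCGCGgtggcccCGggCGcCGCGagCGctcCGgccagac
Pou3f2 promoter: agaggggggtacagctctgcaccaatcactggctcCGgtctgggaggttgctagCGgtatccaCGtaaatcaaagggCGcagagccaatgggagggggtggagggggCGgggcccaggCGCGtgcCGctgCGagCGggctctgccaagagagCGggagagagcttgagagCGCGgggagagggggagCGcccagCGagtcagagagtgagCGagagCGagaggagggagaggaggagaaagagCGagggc
Pou3f3 promoter: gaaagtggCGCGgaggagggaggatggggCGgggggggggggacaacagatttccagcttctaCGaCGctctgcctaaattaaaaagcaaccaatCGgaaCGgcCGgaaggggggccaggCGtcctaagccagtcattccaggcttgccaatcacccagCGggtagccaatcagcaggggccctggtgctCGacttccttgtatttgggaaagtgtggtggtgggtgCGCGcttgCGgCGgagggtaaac

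The lost stretches were short. The median length was 20.8 kb, the quartiles were 13.7 and 34.0 kb, and the longest was 214 kb. Stretches under 20 kb numbered 549 of 1172. In contrast, 129 stretches of at least 50 kb held 30.5% of the lost length, and 18 measured at least 100 kb. The shortest stretches inside the minimum measured 8.008, 8.024 and 8.024 kb, and the longest left out measured 7.983, 7.990 and 7.999 kb. Without a minimum there were 1855 stretches with 35.2 Mb, or 3.28% of the shared LAD length.

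The knockdown lists held more and shorter LADs than those of the controls. The preadipocyte list had 3914 LADs (median 83.2 kb) and the adipocyte list 2542 (median 103 kb), whereas the Tmem120a knockdown list had 5723 (median 59.1 kb) and the double knockdown list 6971 (median 60.7 kb). Total LAD length ranged from 1161 Mb in the double knockdown to 1198 Mb in adipocytes. The gaps between neighbouring LADs were under 50 kb in 36.8% of cases for preadipocytes and 35.3% for adipocytes, but in 46.1% after Tmem120a knockdown and 51.0% after double knockdown. The part of this finer division in the losses was not tested. With gaps under 50 kb closed in all 4 lists, 645 lost stretches were found with 27.3 Mb, and the lost share of shared LAD length without a minimum was 2.54% (3.28% as deposited).

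Most lost stretches lay at the end of a shared LAD stretch or made up a whole one. Of the 1172, 514 (43.9%) reached 1 end of the shared stretch, 210 (17.9%) were a complete shared stretch, and 448 (38.2%) lay in its interior. Whole ones had a median length of 27.01 kb, edge ones 19.7 kb and interior ones 18.8 kb. The shared stretches that held interior ones were long, with a median of 372 kb against 92.5 kb for edge ones.

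**Figure D1:**
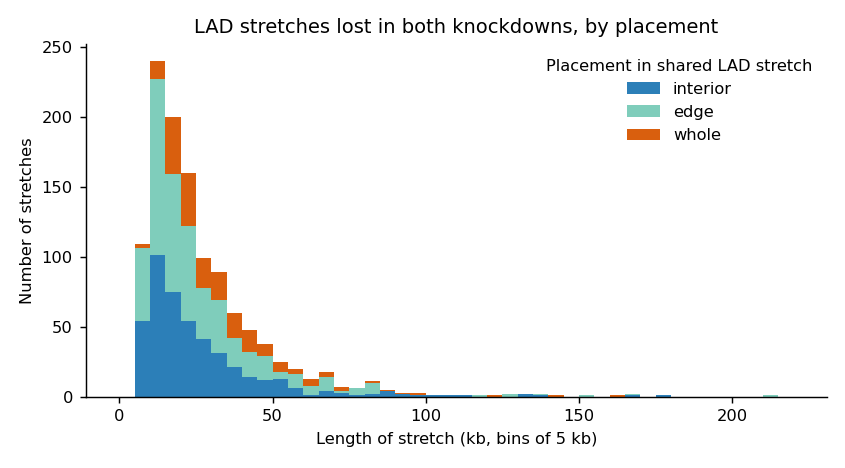
Number of lost stretches (vertical axis) by length in kb (horizontal axis, bins of 5 kb), coloured by placement in the shared LAD stretch. Counts are highest between 10 and 15 kb and fall with length, and all 3 placements occur among the short stretches.

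The same placement was read in windows. Shared LADs were cut into 105647 windows of 10 kb, and 3171 windows (3%) were at least 50% outside the LADs of both knockdown lists. The share was 14.4% within 20 kb of the end of a shared stretch, 6.52% at 20 to 50 kb, 3.22% at 50 to 100 kb, 1.48% at 100 to 250 kb, 0.557% at 250 to 500 kb and 0.134% farther in (36 of 26842 windows). Windows lost in 1 knockdown alone followed the same order. For the Tmem120a knockdown alone the share went from 13.7% to 0.685%, and for the double knockdown alone from 16.3% to 3.16%. Windows over 500 kb inside a shared stretch were thus seldom outside LADs in both lists.

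**Figure D2:**
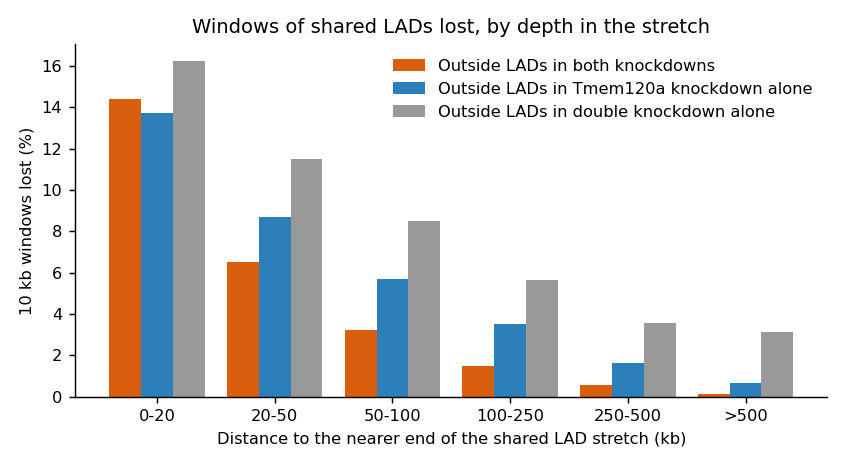
Share of 10 kb windows of shared LADs (vertical axis, %) that lay outside LADs in both knockdowns or in 1 alone, by distance to the nearer end of the shared stretch (horizontal axis, kb). The bars for both knockdowns fall from 14.4% to 0.134%, and those for the double knockdown alone end at 3.16%.

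The 2 knockdown lists rarely drew the same border. Of the 2344 ends, 764 came from a Tmem120a knockdown border, 629 from a double knockdown border, 556 from a preadipocyte border and 362 from an adipocyte border, and the remaining ends were set by more than 1 list. The gap between knockdown LADs around a lost stretch had a median of 105 kb in the Tmem120a knockdown (quartiles 44.2 and 298 kb, 1164 with LADs on both sides) and 131 kb in the double knockdown (quartiles 50.2 and 396 kb, 1166). For interior stretches these medians were 42.4 and 49.1 kb. In 241 cases (20.6%) both knockdown gaps lay wholly inside the shared stretch, and in 744 (63.5%) both gaps reached beyond it.

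Some domains held several lost stretches. They fell in 744 of 2542 adipocyte LADs (29.3%), whose median length was 266 kb against 103 kb for all adipocyte LADs. Only 1 lost stretch was found in 547 of these LADs, and 36 LADs held 5 or more. A LAD on chromosome 17 (chr17:59166825-62117794) and one on chromosome 4 (chr4:16920896-19450757) each held 12, with 405 and 285 kb lost. Furthermore, 292 lost stretches (24.9%) directly adjoined a region that the deposited lists give as in LADs of adipocytes alone, and 170 (14.5%) adjoined a region in LADs of preadipocytes alone. By the rule a lost stretch cannot overlap either kind.

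Among the chromosomes, the lost share of shared LAD length had a median of 2.85%. Chromosome 10 stood at 7.13% (95 stretches), chromosome 13 at 6.16% (67), chromosome 4 at 4.20% (106) and chromosome X at 3.51% (136). Chromosome 6 had the lowest value, 0.745% (26 stretches). Chromosome Y reached 13.6%, but with only 6 stretches in 1.75 Mb. For comparison, the share lost in the double knockdown alone was 12.3% on chromosome X and 3.31% on chromosome 6.

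**Figure D3:**
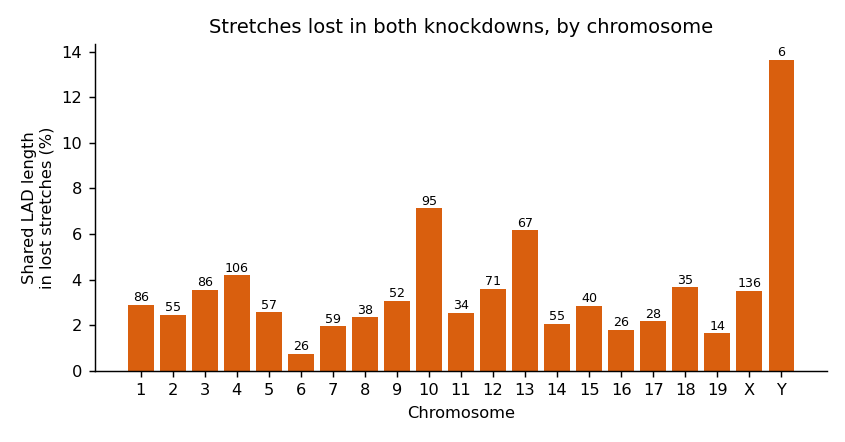
Share of the shared LAD length on each chromosome (horizontal axis) that lay in lost stretches (vertical axis, %), with the number of stretches above each bar. Chromosomes 10 and 13 stand above the other autosomes at 7.13% and 6.16%, and chromosome 6 is lowest at 0.745%.

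The longest lost stretches included parts of long genes and DNA without protein-coding genes. The longest lay on chromosome 18 (chr18:50953151-51167140, 214 kb) and held no protein-coding gene. A stretch of 161 kb (chr10:108187896-108348688) lay in Syt1, the calcium sensor of synaptic vesicles, and was a complete shared stretch. The window of 1 Mb around its centre was 41.1% LAD in preadipocytes and 75.2% in adipocytes, against 18.7% after Tmem120a knockdown and 20.4% after double knockdown. One of 154 kb (chr5:89465367-89618945) lay in Slc4a4, a sodium bicarbonate cotransporter, and those of 167 kb on chromosome 2 (chr2:47289672-47456942) and 140 kb on chromosome 16 (chr16:71864317-72003933) held no protein-coding gene. A neighbouring pair of 141 and 136 kb on chromosome 13 (chr13:116817320-116958815 and chr13:117054306-117190276) shared a double knockdown gap of 801 kb, and the second held Isl1. Further stretches among the 10 longest were one of 167 kb on chromosome 3 (chr3:149670151-149837135), with the pseudogene-like Rpsa-ps10, and one of 132 kb on chromosome 1 (chr1:17122742-17254936) with Gdap1, a mitochondrial protein gene. Few lost stretches held several start sites: the highest count was 2, among them a stretch with Smok2a and Smok2b (chr17:13404888-13425480) and one with Stx3 and Olfr1417 (chr19:11889192-11905093). Reads of near-identical copies such as Smok2a and Smok2b may not have been assignable to 1 copy.

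Protein-coding genes met the lost stretches in 315 cases. This is 6.61% of the 4767 genes that meet a shared LAD stretch. Start sites inside lost stretches numbered 125, or 2.88% of the 4336 start sites in shared LADs, and this stands near the 3.02% of shared LAD length that was lost. Of the 315 genes, 51 lay wholly inside a lost stretch, 87 had at least 50% of the body inside, 222 had coding sequence inside and 66 met it only with introns. Protein-coding genes were absent from 823 lost stretches (70.2%). Of the lost length, 23.4% was in gene bodies and 1.02% in exons.

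The 25 genes with the most length inside the lost stretches are given next, an order that favours long genes by construction, although Clip4 (88.7 kb) and Ddx60 (110 kb) were among them. Pcdh9, a protocadherin, had 246 kb inside (28.2% of its body) in 6 stretches, and LADs covered 53.8% of its body in preadipocytes and 93.1% in adipocytes, against 38.0% after Tmem120a knockdown and 2.63% after double knockdown. Slc4a4 had 154 kb inside (43.5%), with shares of 63.9% and 57.6% in the controls and 11.6% and 14.1% in the knockdowns. In Slc4a4 the 2 knockdowns were close, whereas in Pcdh9 the double knockdown list kept little of the gene. Lrrc4c, which encodes a synaptic adhesion protein, had 144 kb inside but only 11.0% of its body, and Odz3 (teneurin-3) had 120 kb (26.8%). Usp9y on chromosome Y had 102 kb inside (63.2%) and was at 0% in both knockdown lists, and so was Clip4 (68.6 kb, 77.4% of the body). Dock10, a guanine nucleotide exchange factor, had 110 kb inside (42.5%), with 0% LAD after Tmem120a knockdown and 2.56% after double knockdown. When the lists were limited to LADs of at least 100 kb, Clip4 and Dock10 met no lost stretch. Further genes among the leading 25 were Syt1, Macrod2, Frmpd4, Fam5c, Arhgap15, Edil3, Slc9a9, Agbl4, Prkg1, Immp2l, Unc80, Ddx60, Galnt13, Mageb18 and Trdn, with between 66.1 kb (Mageb18, 13.8% of the body; Galnt13, 66.1 kb) and 161 kb (Syt1, 31.3%), and 1 gene known only by a clone name.

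Genes wholly inside a lost stretch were, by construction, 100% LAD in both controls and 0% in both knockdowns. Rgs13, a regulator of G-protein signalling, was the longest gene wholly inside a lost stretch (38.7 kb, in a stretch of 91.1 kb that was a complete shared stretch). Gbp9, an interferon-inducible GTPase, followed with 31.9 kb, then Zfp558 (22.7 kb) and Pax9 (21.1 kb). Gdap1 (18.9 kb), Sall1 (16.9 kb), Isl1 (11.4 kb), the prostaglandin D2 receptor gene Ptgdr (8.14 kb) and Prdm8 (6.58 kb) were further named genes, along with Olfr749, Mbd3l1, Smok2a and Slfn1. Around Ptgdr the double knockdown gap was 22.2 kb and the Tmem120a knockdown gap 76.9 kb, within a shared stretch of 517 kb.

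Developmental transcription factors were frequent among the genes with a start site in a lost stretch. Their list (homeobox, POU, paired box, Sox, Sall and related families, by symbol) was written after these values were seen, so its share is a description only. Of 39 such genes (Alx1 is annotated with 2 copies) that meet a shared LAD stretch, 11 met a lost stretch (28.2%, against 6.61% for all genes), all with the start site inside. The list leaves out the clustered Rhox homeobox genes, of which Rhox12 had 72.7% of its body but not its start site in a lost stretch. Among the 11 were Bcl11a, Bhlhe22, Foxi3, Isl1, Lmo1, Pax9, Pou3f2, Pou3f3, Prdm8 and Sall1, and 7 of the 11 lay wholly inside. Of the 37 start sites of the list in shared LADs, 19 (51.4%) were in LADs of both knockdowns, 1 (2.70%) was outside in the Tmem120a knockdown alone, 5 (13.5%) in the double knockdown alone and 12 (32.4%) in both. The one of these 12 that was not in a lost stretch was Nkx2-9, whose stretch was under 8 kb. Over all 4336 start sites these shares were 86.3%, 4.80%, 5.72% and 3.16%. Genes of the same families that stayed in LADs in both knockdowns included Sox3, Sox6, Sox14, Sox17, Sox21, Neurod1, Neurod6, Pax1 and Foxp2.

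**Figure D4:**
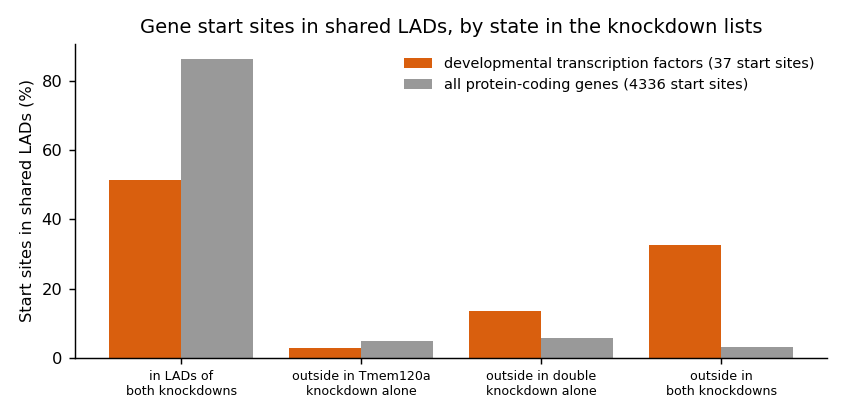
Share of gene start sites in shared LADs (vertical axis, %) by their state in the 2 knockdown lists (horizontal axis), for 37 start sites of developmental transcription factors and for all 4336. Outside LADs in both knockdowns were 32.4% of the former and 3.16% of all start sites; the list was written after the values were seen.

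These regulators lay mostly in the interior of shared stretches. The 11 stretches had a median length of 33.8 kb (14.6 to 136 kb), and 10 of 11 were interior, against 33 of the 102 other lost stretches with a start site (32.4%). Interior means only that neither end was shared, and some lay near an end. From start site to the nearer end of the shared stretch it was 22.1 kb in Lmo1, 37.7 kb in Bhlhe22 and 40.9 kb in Pou3f2. In Pax9 and Sall1 it was 62.4 and 90.4 kb, and in Bcl11a, Isl1, Prdm8 and Pou3f3 between 102 and 133 kb. Pou3f3 (chr1:42753991-42757052), a neural POU factor, lay in a shared stretch of 886 kb. Its knockdown gaps were 38.8 kb (Tmem120a) and 48.7 kb (double), and the nearest LAD from its start site was 16.7 and 5.42 kb away in these lists. Pou3f2 (chr4:22413791-22415480), its relative, lay in a shared stretch of 841 kb with gaps of 46.3 and 26.3 kb. The pair on chromosomes 1 and 4 thus each had a narrow hole around a short gene in a long shared stretch. They differed in depth, since the Pou3f2 start site was 40.9 kb from the end of that stretch and the Pou3f3 one 133 kb. Sall1 (chr8:91551147-91568061), a zinc finger gene of kidney and limb development, lay in a shared stretch of 1822 kb with gaps of 113 and 36.3 kb. Its start site was 11.4 kb from the nearest LAD in both lists, which is the shared border printed above. Pax9 (chr12:57792754-57813809) had gaps of 33.8 and 49.9 kb. Prdm8 (chr5:98609888-98616467) had gaps of 52.9 and 63.6 kb and Bhlhe22 (chr3:17954325-17957509) gaps of 272 and 36.1 kb. Isl1 (chr13:117088478-117099896), a LIM homeobox gene of motor neurons and pancreatic islets, differed from these, since its gaps were 186 and 801 kb. Most of these holes were under 50 kb in at least 1 list, and with gaps under 50 kb closed 3 of the 11 genes still met a lost stretch, namely Foxi3, Isl1 and Prdm8.

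**Figure D5:**
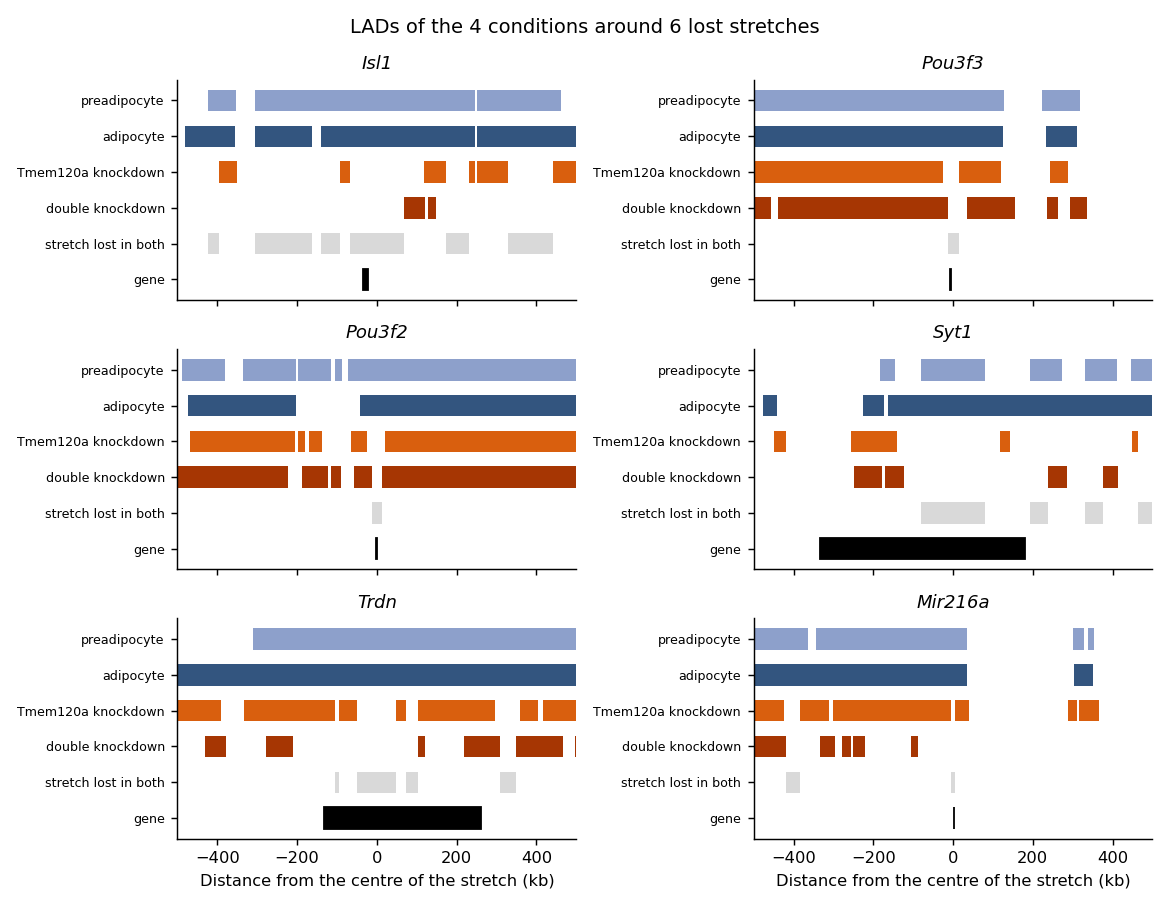
LADs (bars) of the 4 conditions, lost stretches and the gene, by distance in kb from the centre of the lost stretch (horizontal axis, 500 kb to each side), around Isl1, Pou3f3, Pou3f2, Syt1, Trdn and Mir216a. Around Pou3f3 and Pou3f2 the knockdown LADs close in on both sides of a hole of 26.3 to 48.7 kb. Around Isl1 and Syt1 the LADs of both knockdowns are broken over a wide region. Around Trdn the gap is 313 kb in the double knockdown and 97.0 kb in the Tmem120a knockdown.

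Promoters of these regulators were rich in CG pairs, while those of all genes with a start site in a lost stretch were close to the RefSeq background. Promoters of the listed regulators that stayed in LADs were not read. Whether CG pairs differ between lost and kept regulators was therefore not tested. RefSeq promoters were matched for 9 of the 11 genes (12 promoters), with a median of 17.5 CG pairs in 250 bases and 11 of 12 with at least 10. Over the 70 matched genes with a start site in a lost stretch (83 promoters) the median was 6, the same as over all promoters, and 31.3% had at least 10 against 37.8% of all. GATC (same letters on both strands) occurred in 43.4% of the promoters of genes with a start site in a lost stretch and in 41.9% of all.

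The remaining gene lists were read by their counts. Adipogenic transcription factors (18 genes) and genes of lipid storage and adipokines (30) met no shared LAD stretch and so no lost stretch. Muscle sarcomere and myogenic genes met lost stretches in 3 of 15 cases in shared LADs (20%, against 6.61% over all genes). None of their 12 start sites in shared LADs was inside, where the share over all genes was 2.88%. With so few start sites, no difference from that share is read. Trdn, the triadin of the sarcoplasmic reticulum (chr10:32803289-33196515), was the leading one with 138 kb inside in 3 stretches. Its body was 100% LAD in both controls, 64.7% after Tmem120a knockdown and 15.3% after double knockdown. Myo18b had 15.7 kb inside (7.56%). Sgcd, a sarcoglycan, had only 8.79 kb inside (0.805%), and its LAD share was 73.9% in preadipocytes and 57.6% in adipocytes, against 71.9% after Tmem120a knockdown and 71.0% after double knockdown, so that its cover as a whole was not lower than in adipocytes. In a short list of 16 genes taken from the study's text, 4 met a shared LAD stretch and Myo18b alone among these met a lost one. Tmem120a and Tmem120b themselves lay outside LADs in all 4 lists.

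Genes of adhesion and of synaptic signalling met lost stretches mostly with part of the body. Cadherins and protocadherins did so in 4 of 31 cases, axon guidance and synaptic adhesion genes in 4 of 40, semaphorins, plexins and ephrins in 2 of 7, and glutamate and GABA receptors in 4 of 30. Over all genes in shared LADs the share was 6.61%, and gene length was not taken into account. No start site of the cadherin (27 in shared LADs), axon guidance (35) or semaphorin (5) lists lay inside a lost stretch. Over all genes the start-site share was 2.88%, and no difference from it is read from these counts of 0. Grik3, a kainate receptor subunit, had 64.5 kb inside (28.9%), and Sema3d 46.9 kb (22.8%). Ion channels gave 2 of 26 potassium channels and 1 of 6 sodium and calcium channels.

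Among signalling, matrix and metabolic genes, Fzd10, a Wnt receptor (chr5:129106719-129109968), lay wholly inside a stretch of 12.3 kb. Its knockdown gaps measured 15.995 and 14.342 kb in a shared stretch of 580 kb, and it was the 1 case among 4 Wnt pathway genes. Matrix proteases met lost stretches in 4 of 10 cases, where the share over all genes was 6.61%. Mmp3, stromelysin-1, had 59.1% of its body inside and was at 0% in both knockdowns, and the nearby Mmp1a had 6.74%. Collagens gave 2 of 7 and solute carriers 6 of 58 cases. Slc7a2, a transporter of cationic amino acids, led the carriers with 75.6% of its body inside, and its LAD shares were 75.6% and 76.0% in the controls and 0% in both knockdowns. Chemokines, interleukins and their receptors gave 3 of 27, with Il19 at 62.1% of its body, and zinc finger proteins 5 of 53.

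Clustered sensory receptor genes, which fill many LADs, were seldom in lost stretches. Olfactory receptors met lost stretches in 8 of 982 cases (0.815%), vomeronasal receptors with a Vmn symbol in 0 of 297, serpins in 0 of 25 and keratins in 0 of 19. The cytochrome P450 genes gave 3 of 53, and BMP and TGF-beta pathway genes (0 of 6) and phosphodiesterases (0 of 5) none. One vomeronasal receptor gene with an older symbol, V1ra8, was not in that list and lay wholly inside a lost stretch. Against 6.61% over all genes, the olfactory and vomeronasal receptor shares were low, although their gene bodies are short and a short body meets fewer stretches. The serpin, keratin, BMP and phosphodiesterase lists hold few genes in shared LADs, and no difference from that share is read from their counts of 0. By start sites the olfactory receptors stood at 5 of 978 (0.511%), against 2.88% over all genes.

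Of 464 miRNA genes that meet a shared LAD stretch, 14 (3.02%) met a lost stretch, no more than the 3.02% of shared LAD length that was lost. Of the 14, 2 have a miRNA symbol, Mir216a and Mir325. The 5p arms of these and of the neighbours of Mir216a are printed to show the cluster, from RefSeq on GRCm38.p6, with the seed (bases 2 to 8) in capitals. All 8 arms of the 4 genes had different seeds.
mmu-miR-216a-5p: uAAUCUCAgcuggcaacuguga
mmu-miR-216b-5p: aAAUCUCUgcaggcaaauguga
mmu-miR-217-5p: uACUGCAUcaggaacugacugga
mmu-miR-325-5p: cCUAGUAGgugcucaguaagugu

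Mir216a (chr11:28657012-28657083 on mm9) lay in a lost stretch of 10.6 kb, which was a gap of the same width between 2 Tmem120a knockdown LADs. Mir216b and Mir217, on either side, were in LADs of preadipocytes, adipocytes and the Tmem120a knockdown and outside those of the double knockdown. The cluster therefore differed between the knockdown lists over all but a narrow gap, since the double knockdown gap there spanned 796 kb. Mir325 (chrX:102574421-102574518) lay in a lost stretch of 77.8 kb at the end of a shared stretch, with gaps of 110 and 99.0 kb.

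By medians per stretch, the lost stretches were close to kept LADs in base composition. Median GC was 39.4% (quartiles 37.7% and 41.6%) in lost stretches, 39.5% (37.8% and 41.6%) in the 5322 stretches kept in all 4 lists, 40.4% in the 1784 stretches lost in the Tmem120a knockdown alone and 39.1% in the 2649 lost in the double knockdown alone. DNA in LADs of no list had a median of 42.5%. GATC sites, which set the resolution of DamID, had a median of 2.54 per kb in lost stretches and 2.58 per kb in kept ones, with overlapping quartiles. CG pairs numbered 6.00 per kb (median) in lost and 5.96 in kept stretches, and repeats of at least 5 GA units on either strand 103 and 101 per Mb. Pooled over all bases, CG pairs were more frequent in lost than in kept stretches (6.80 and 6.00 per kb). Pooled GC was 39.8% and 39.2%. Start sites of protein-coding genes were at 3.86 per Mb in lost and 4.09 per Mb in kept stretches, against 12.998 per Mb in DNA of no LAD. Lost stretches with a start site (113) had a higher median GC (41.1%) and more CG pairs (7.56 per kb) than the 1059 without one (39.3% and 5.84 per kb).

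By windows, the share lost in both knockdowns was higher where GC and CG pairs were more frequent. Windows were divided into 5 groups of about equal size by GC, and from the lowest to the highest group the lost share went from 2.63% to 3.35%, and by CG pairs from 2.16% to 3.81%. The share lost in the Tmem120a knockdown alone changed more, from 1.97% to 8.18% across the GC groups, while that lost in the double knockdown alone was 6.59% and 6.21%. Windows with a protein-coding start site were lost in both at 2.73% (112 of 4102) and those without at 3.01%. At least 100 kb inside a shared stretch these values were 0.922% (22 of 2387) and 0.698% (484 of 69384).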

How the data were processed

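LaminB1-DamID was measured in 8 libraries, 1 LaminB1-Dam and 1 Dam per condition. The authors mapped reads to mm9 (BWA and limma are named in the submitters' processing notes, with no version), took the log2(LaminB1-Dam/Dam) per DpnI fragment and called LADs by segmentation. The deposited values are positions, 1 list per condition without replicates, so no test, interval of a fold change or depth is given. Interval arithmetic by bp used Python 3.11.15 and numpy 2.4.6, and was tested on simulated data. Wilson 95% intervals came from scipy 1.17.1, and plots from matplotlib 3.10.9. Genes were from GENCODE vM1 (22367 protein-coding genes on NCBIM37), and sequences from NCBIM37 and RefSeq (GRCm38.p6). The 2 deposited lists of differential regions served only to find adjoining regions. Starts count from 1. LAD borders lay in a GATC of NCBIM37 in 96.5% to 98.8% of cases per list, which checked the build. The stretches and gene lists were chosen with earlier results of these data known. The rule for names took the 25 genes with most bp inside, up to 15 wholly inside (longest first) and up to 4 per list by share of body, and the 10 longest regions and 5 with most start sites. Many that met it are counted but not named here, and some named genes lie outside it and were chosen after their values were seen. The number and length of stretches were recomputed with other minimum lengths, closed gaps, minimum LAD sizes and without chromosome X; placement and genes with a minimum of 20 kb, gaps under 10 kb closed and without chromosome X; and composition with a minimum of 20 kb, trimmed ends and without chromosome X. A share counted as moved when outside the Wilson interval, and another value when it changed over 1.5 times.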

Additional observations from a re-analysis of the deposited data

How the results depend on the processing

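No paired analysis was possible because no condition had a replicate. Of 72 recomputed summary values, 53 stayed within the limits above. The number of lost stretches moved to 623 at a minimum of 20 kb, to 129 (9.89 Mb) at a minimum of 50 kb, to 645 with gaps under 50 kb closed (27.3 Mb), to 761 (49.9 Mb) with LADs of at least 100 kb, and to 2075 (78.4 Mb) when only the adipocyte list was required. With gaps under 50 kb closed, the shared LAD length lost in the Tmem120a knockdown alone was 2.93% and in the double knockdown alone 4.24% (4.50% and 6.91% as deposited). At a minimum of 20 kb, interior stretches were 35.0%, edge stretches 40.4% and whole ones 24.6%, and 183 genes met lost stretches. Interior stretches were 34.5% with borders within 5 kb counted as shared. Genes numbered 125 by start site and 87 by at least 50% of the body. Developmental transcription factor genes meeting lost stretches numbered 2 at a minimum of 50 kb and 4 with gaps under 50 kb closed, and of the 11 reported 3 were among the latter. These alternatives for the developmental list, and placement, genes and composition without chromosome X, were chosen after seeing the data. Among named genes and regions, 448 of 506 recomputed values stayed within 1.5 times. Some fell to 0 kb. At a minimum of 50 kb these were 14, among them Macrod2, Fam5c and Ddx60. With gaps under 50 kb closed they were 9. With LADs of at least 100 kb they were 6, among them Dock10, Clip4, Slc9a9, Prkg1 and Immp2l. The causes were not tested. Depth is unknown, so what it limits cannot be given.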
